A study of Homo sapiens with 26 samples.

Results

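Expression of 8 transcription factors that define the pancreatic and endoderm lineage was examined in single cell-derived cell lines (SCDCLs) of pancreatic ductal adenocarcinoma. GATA6, GATA4, HNF4A, FOXA1, FOXA2, PDX1, SOX9 and KLF5 were taken because they are used to describe subtypes of pancreatic cancer, and each was found by its Ensembl identifier, so that they make up 8 of the 41078 genes in the expression table. The values are TPM, a share of all transcripts in a library that accounts for transcript length and for the size of the library. The study asked how SCDCLs grown from the lines BxPC3 and Panc-1 differ from one another in their molecular profile and in their response to the drug gemcitabine. mRNA of 26 SCDCLs was sequenced, 12 with the label BxPC3 and 14 with the label Panc-1.

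BxPC3 stands for the classical and Panc-1 for the basal-like form of this cancer, and both are established human lines. Each SCDCL was grown from 1 cell by limiting dilution and gave 1 library, so no SCDCL has a second library and spread between libraries is spread between SCDCLs plus technical error. The sample labels give gemcitabine as the treatment throughout, while the methods apply it in separate viability assays and take RNA from growing cultures. The drug response of each library was not analysed here.

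SMAD4, a mediator of TGF-beta signaling that BxPC3 has lost by deletion and Panc-1 keeps, divided the libraries in another way than the labels. It lay between 0 and 0.0440 TPM in 12 libraries (5 with the label BxPC3 and 7 with Panc-1), and between 28.1 and 52.2 TPM in the other 14 (7 of each label). SMAD4 thus goes against the label of 14 libraries, and groups are given below both by label and by SMAD4. CDH1, the gene of the epithelial adhesion molecule E-cadherin, ranged from 90.8 to 198 TPM in the 12 libraries without SMAD4 and from 0.338 to 7.74 TPM in the 14 libraries with SMAD4. VIM, the gene of vimentin, a filament of mesenchymal cells, was at most 73.2 TPM in the 12 and at least 3047 TPM in the 14. Ductal markers were present on both sides, with 6 keratin and epithelial genes summing to 3945 to 7983 TPM in the 12 and to 2099 to 8481 TPM in the 14. Single markers went both ways. KRT7 (medians 2377 and 27.3 TPM in the 12 and 14), EPCAM (308 and 13.5 TPM) and KRT19 (1966 and 1220 TPM) were higher by median in the 12. KRT8 (461 and 2053 TPM), KRT18 (521 and 1598 TPM) and MUC1 (3.88 and 40.0 TPM) were higher by median in the 14. Markers of acinar and endocrine cells each summed to under 1 TPM in every library, and INS, GCG and SST never exceeded 3 estimated counts. Of the immune markers, CD68 carried the sum (5.71 to 27.9 TPM in the 12 and 42.5 to 141 TPM in the 14), and PTPRC was at most 0.535 TPM. Endothelial markers summed to 3.16 to 16.97 TPM in the 12 and to 0.321 to 5.39 TPM in the 14. CDH5 ran from 1.04 to 13.6 TPM in the 12 and was at most 0.0427 TPM in the 14, and PECAM1 reached 6.07 and 5.38 TPM. Fibroblast markers summed to 9.72 to 28.6 TPM and to 2.68 to 39.4 TPM. COL1A1 was the highest of them by median (8.92 to 26.5 TPM and 2.06 to 38.5 TPM), PDGFRB reached 3.47 TPM in the 14 and LUM was at most 0.243 TPM. The part of these markers in the levels below was not tested. No pair of libraries held identical values, and totals of estimated counts ran from 27144920 to 34945608 in the 12 and from 27035724 to 32601392 in the 14.

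Lineage transcription factors bind the regulatory DNA of tissue genes and keep a cell in its identity. FOXA1 and FOXA2 are pioneer factors that can bind closed chromatin in endoderm, GATA4 and GATA6 act beside them in the early pancreas, PDX1 is needed for the pancreatic bud, and SOX9 marks progenitors and later the ducts. HNF4A is a nuclear receptor of foregut and liver epithelium, and KLF5 is a zinc finger factor of proliferating epithelium. In pancreatic cancer, GATA6 and HNF4A are known as markers of the classical subtype.

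GATA6 and KLF5 showed the widest gaps of the 8 genes between the 12 and the 14 libraries, and the DNA just upstream of both is shown for that reason. Each sequence is the 250 bases before the RefSeq start, read 5′ to 3′ on the plus strand of GRCh38.p14, and lies outside the gene as GENCODE annotates it. Capitals mark the matches found to 6 short motifs, searched on both strands: AGATAA or TGATAA for GATA factors, TGTTTAC for FOXA factors, CCCCACCC for KLF factors, ACAAAGG or ACAATGG for SOX factors, CAAAGTCCA for HNF4 and CTAATTA for PDX1.
GATA6, chr18:22169339-22169588: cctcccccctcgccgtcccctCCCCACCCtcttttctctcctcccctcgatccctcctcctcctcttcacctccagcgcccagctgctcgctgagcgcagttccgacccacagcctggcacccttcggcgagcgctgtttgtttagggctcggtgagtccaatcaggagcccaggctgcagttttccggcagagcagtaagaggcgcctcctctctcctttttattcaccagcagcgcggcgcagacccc
KLF5, chr13:73054726-73054975: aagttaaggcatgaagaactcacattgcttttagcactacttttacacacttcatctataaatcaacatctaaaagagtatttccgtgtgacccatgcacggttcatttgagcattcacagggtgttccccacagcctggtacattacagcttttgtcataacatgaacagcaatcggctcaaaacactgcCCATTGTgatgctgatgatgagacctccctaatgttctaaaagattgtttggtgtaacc
The GATA6 window held 1 match, CCCCACCC, which begins 229 bases before the start and occurs in 10.4% of all 35116 RefSeq promoter windows of this length. In the KLF5 window the match is ACAATGG on the minus strand, 59 bases before the start, and 6.91% of windows hold 1 of the SOX motifs. These matches describe letters and not binding. The windows also differ in composition, with 64.4% G and C for GATA6 and 40.8% for KLF5 beside a median of 58% over all windows.

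Between the labels, none of the lineage factors passed the test. Of the 8, 7 had enough counts to be tested and HNF4A did not. edgeR's quasi-likelihood test called 0 of 16008 genes (0% of genes tested), with 367 at an unadjusted p under 0.05, and none of the 7 factors was among the latter. The log2 fold change of Panc-1 over BxPC3 labels was 0.44 (SE 1.03) for GATA6, 0.38 (SE 1.23) for KLF5 and 0.73 (SE 0.78) for FOXA1, each with an adjusted p of 1.00 in edgeR. Libraries of both labels stood at both ends of the range of these genes. For GATA6, libraries labelled BxPC3 ran from 0.0443 to 25.2 TPM and those labelled Panc-1 from 0.0538 to 27.8 TPM. FOXA2 had the smallest error, with a log2 fold change of -0.16 (SE 0.12). Each SE here was derived from edgeR's output, as the absolute log2 fold change divided by the square root of the F statistic. Within the sides given by SMAD4, and with SMAD4 as a covariate, no factor passed either. SOX9 came closest, with a log2 fold change of -0.74 (SE 0.31; edgeR adjusted p = 0.421) between labels among the 12 libraries, where library 16, described below, is labelled BxPC3.

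The sides given by SMAD4 were made from measured values and so are described without a test. For 4 of the 8 factors, every library of one side lay above every library of the other: GATA6, FOXA1 and KLF5 were higher in the 12 libraries and GATA4 was higher in the 14. Such a gap was common, since 30% of the 16008 genes tested had one in either direction, 14.6% with the 12 higher and 15.4% with the 14 higher. FOXA2, PDX1, SOX9 and HNF4A overlapped between the sides. In libraries of whole cultures, fewer cells with a gene and less of its RNA in each cell cannot be told apart.

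**Figure D1:**
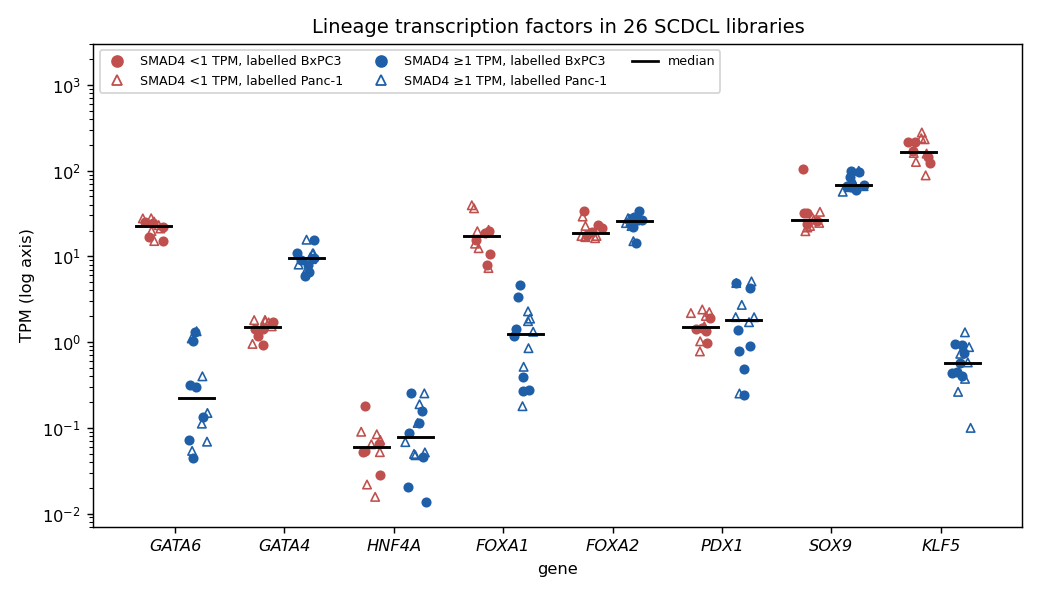
TPM on a log axis of the 8 lineage transcription factors in each of 26 libraries, red for SMAD4 under 1 TPM (12) and blue for SMAD4 at least 1 TPM (14), filled circles for the label BxPC3, open triangles for Panc-1 and black bars for medians. GATA6, FOXA1 and KLF5 lie higher in red and GATA4 lies higher in blue with no overlap. In SOX9, 1 red circle, at 104.5 TPM, stands above the highest blue point, at 99.4 TPM.

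GATA6 (ENSG00000141448, GRCh38 chromosome 18, 22169589 to 22202528, plus strand), the zinc finger factor of endoderm and of the classical subtype, was 100.4-fold higher by median in the 12 libraries. Its lowest, median and highest values were 15.1, 22.4 and 27.8 TPM in the 12 and 0.0443, 0.223 and 1.34 TPM in the 14. The 12 thus lay close together, 1.84-fold from lowest to highest, and the nearest libraries of the sides were 11.3-fold apart. The 14 were uneven. GATA6 stood between 1.04 and 1.34 TPM in 4 of them, libraries 8 and 11 labelled Panc-1 and libraries 15 and 22 labelled BxPC3, and between 0.0443 and 0.399 TPM in the other 10. These low levels rest on 2.91 to 91.4 estimated counts, with 1 library at or under the floor of 3 counts, so ratios among the lowest libraries are imprecise.

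GATA4 (ENSG00000136574, chromosome 8, 11676959 to 11760002, plus strand), its relative in endoderm and heart, ran the other way. It was measured at 0.936, 1.52 and 1.81 TPM (lowest, median, highest) in the 12 and at 5.95, 9.47 and 15.6 TPM in the 14, which is 6.24-fold higher by median. Libraries 8 and 19 held the highest values of the 14. The pair of GATA factors therefore changed places: in the 12 the median of GATA6 exceeded that of GATA4, and in the 14 that of GATA4 exceeded that of GATA6. GATA4 was low but above the floor in each of the 12, with 73.5 to 143 estimated counts.

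FOXA1 (ENSG00000129514, chromosome 14, 37589552 to 37596059, minus strand), a pioneer factor of endoderm, was 13.7-fold higher by median in the 12 libraries. It lay at 7.30, 17.2 and 39.4 TPM in the 12 and at 0.179, 1.25 and 4.69 TPM in the 14. Only a narrow gap divided the sides, as library 20, the highest of the 14, was 1.56-fold below library 4, the lowest of the 12. FOXA1 spread widely on both sides, 5.40-fold from lowest to highest among the 12 and 26.3-fold among the 14. Among the 12, libraries 4 and 26 were lowest and libraries 3 and 5 were highest.

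FOXA2 (ENSG00000125798, chromosome 20, 22580998 to 22585455, minus strand), which shares its DNA-binding domain type with FOXA1, hardly separated the sides. Its values were 16.3, 18.6 and 33.7 TPM in the 12 and 14.3, 25.7 and 34.1 TPM in the 14, and the median of the 14 was 1.38-fold that of the 12. Most of the 12 sat near the low end, and libraries 25 (33.7 TPM) and 7 (29.1 TPM) stood above them. In the 14, libraries 20 and 9 were low, at 14.3 and 15.03 TPM. Library 20 thus had the highest FOXA1 and the lowest FOXA2 of the 14.

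KLF5 (ENSG00000102554, chromosome 13, 73054976 to 73077541, plus strand), a factor of proliferating epithelium, had the widest gap of the 8 genes. It lay at 88.0, 165.6 and 278.4 TPM in the 12 and at 0.0998, 0.576 and 1.30 TPM in the 14, a 287-fold difference of medians, and the nearest libraries were 67.7-fold apart. In the 12 libraries KLF5 was the highest of the lineage factors in every library. The 14 still held 4.40 to 55.5 estimated counts, above the floor of 3 in each library.

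SOX9 (ENSG00000125398, chromosome 17, 72121020 to 72126416, plus strand), the factor of pancreatic progenitors and ducts, was 2.56-fold higher by median in the 14 libraries and overlapped between the sides through 1 library. Its values were 19.6, 26.3 and 104.5 TPM in the 12 and 56.7, 67.5 and 99.4 TPM in the 14. The highest value on either side was in library 16, labelled BxPC3 and without SMAD4, with 7335 estimated counts and a counting error of 1.17%, and the next of the 12 was at 33.0 TPM. All 14 lay above that next value, so without library 16 SOX9 would be the fifth factor with no overlap. In GATA6, FOXA1 and KLF5, library 16 lay within the range of the other 11, at 24.6, 19.9 and 170.5 TPM.

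PDX1 (ENSG00000139515, chromosome 13, 27920000 to 27926313, plus strand), the factor of the pancreatic bud and of beta cells, was low and overlapped throughout. It was measured at 0.778, 1.49 and 2.40 TPM in the 12 and at 0.240, 1.83 and 5.10 TPM in the 14. Its medians were alike, but the spread was not, with 3.08-fold from lowest to highest in the 12 and 21.2-fold in the 14. Libraries 12, 8, 17 and 19 held 4.29 to 5.10 TPM, and libraries 18, 11 and 23 held 0.240 to 0.485 TPM, with both labels at each end.

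HNF4A (ENSG00000101076, chromosome 20, 44355699 to 44432845, plus strand), a marker of the classical subtype, was close to the limit of detection on both sides. It reached at most 0.181 TPM in the 12 and 0.257 TPM in the 14, from 1.88 to 16.4 and from 1.45 to 29.6 estimated counts. On each side 2 libraries were at or under 3 counts, a floor of 0.0247 to 0.0332 TPM in the 12 and of 0.0261 to 0.0319 TPM in the 14, and no ratio between the sides is given. Its relative HNF4G, which binds similar DNA, was at 2.27 to 4.74 TPM in the 12 and at most 0.796 TPM in the 14.

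Ordered by median TPM, the 12 libraries read KLF5, SOX9, GATA6, FOXA2, FOXA1, GATA4, PDX1 and HNF4A, and the 14 read SOX9, FOXA2, GATA4, PDX1, FOXA1, KLF5, GATA6 and HNF4A. Not all neighbours in these orders are distinct. In the 12, SOX9 exceeded GATA6 in 8 libraries, GATA6 exceeded FOXA2 in 6 and GATA4 exceeded PDX1 in 5, so these neighbours did not differ beyond their spread, while FOXA1 and GATA4 did not overlap. KLF5 was above SOX9 in 12 of 12, although the ranges overlap through library 16. In the 14, SOX9 and FOXA2 did not overlap, nor did GATA4 and PDX1, and the places from PDX1 to HNF4A held in 9 or 10 libraries. Summed over the 8 factors, the level was 153 to 382 TPM in the 12 and 82.4 to 145 TPM in the 14, with KLF5 the largest part of the former and SOX9 of the latter.

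Spread between SCDCLs of one side was measured as the SD of log2(TPM + 1) and set beside the same for the 16008 genes tested, and beside the SD that counting error alone gives 1 library, from its estimated counts. FOXA1 varied more than most genes on both sides, with an SD of 0.71 in the 12 and 0.70 in the 14, larger than in 96.4% and 94.6% of genes, and its median counting SD was 0.051 and 0.10. PDX1 varied in the 14, with an SD of 0.83, above 96.7% of genes, against 0.31 in the 12, above 57.4%. With a pseudocount of 0.1 in place of 1, the SD of FOXA1 in the 14 was 1.28, and that of PDX1 was 1.37 in the 14 and 0.49 in the 12. The median counting SD of PDX1 was 0.090 in the 12 and 0.083 in the 14, so its spread in the 14 was larger than the counting error of a single library. SOX9 had an SD of 0.61 in the 12, which rests on library 16, and 0.27 in the 14. The SD of KLF5 was 0.48 in the 12, above 86.2% of genes, and that of GATA6 was 0.30, above 55.5%.

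Among the 12 libraries, GATA6, FOXA1 and KLF5 went up and down together. Correlations of log2(TPM + 1) were computed for 31 pairs of factors with a median of at least 1 TPM, 21 pairs in the 12 and 10 in the 14, with 100000 permutations each and adjustment over the 31. GATA6 and FOXA1 had r = 0.885 (permutation p = 0.00012, adjusted p = 0.00372) and rho = 0.839 (permutation p = 0.0011, adjusted p = 0.0131) over the 12 libraries, and r = 0.869 without libraries 4 and 21 (adjusted permutation p = 0.0263). GATA6 and KLF5 had r = 0.826 (permutation p = 0.00094, adjusted p = 0.00971) and rho = 0.867 (permutation p = 0.00056, adjusted p = 0.0131), and r = 0.777 without the same libraries, where the call was lost after adjustment (permutation p = 0.00789, adjusted p = 0.0815). FOXA1 and KLF5 had r = 0.870 (permutation p = 0.00024, adjusted p = 0.00372) and rho = 0.832 (permutation p = 0.00127, adjusted p = 0.0131), and r = 0.829 without libraries 3 and 4 (adjusted permutation p = 0.0356). Libraries 3 and 5 were high and libraries 4 and 26 were low in all of these genes. Their totals were close, with 29040876 estimated counts in library 4 and 29884346 in library 3. Many other genes correlated as well or better: 87 of 14094 genes with GATA6 had a higher r than FOXA1 did, which is 0.617% of them, and 386 or 2.74% had a higher r than KLF5. The median r over all 14094 genes was also positive, at 0.238 with GATA6, 0.233 with FOXA1 and 0.253 with KLF5. No other pair of the 12 passed, so none with GATA4, PDX1, FOXA2 or SOX9 was called. Their r with GATA6, FOXA1 and KLF5 ran from -0.172 (PDX1 with KLF5) to 0.367 (GATA4 with FOXA1). The r of GATA6 with GATA4 was 0.175. For SOX9, r depends on library 16: with KLF5 it was 0.011, and 0.380 without libraries 16 and 5 (adjusted permutation p = 0.737). The other SOX9 pairs kept library 16 when the farthest libraries were left out. A moderate correlation may not pass with 12 libraries.

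**Figure D2:**
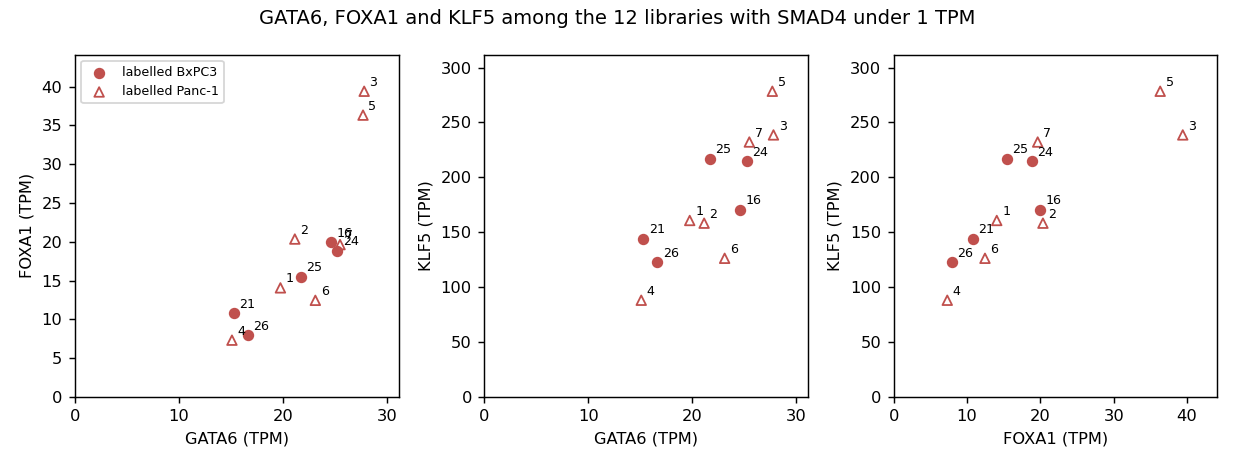
TPM of FOXA1 and KLF5 against GATA6, and of KLF5 against FOXA1, in the 12 libraries with SMAD4 under 1 TPM, with linear axes from 0, 1 point per library and its number, filled for the label BxPC3 and open for Panc-1. Libraries 4 and 26 lie at the low end and libraries 3 and 5 at the high end of FOXA1 and KLF5, and the r of the log2 values is 0.885, 0.826 and 0.870.

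Among the 14 libraries, GATA4 rose with PDX1 (r = 0.688, permutation p = 0.00654, adjusted p = 0.0405; rho = 0.741, permutation p = 0.00334, adjusted p = 0.0259). Without libraries 8 and 19, which lie farthest from the median of GATA4, r was 0.538 and no longer passed (permutation p = 0.0731, adjusted p = 0.378), so the call depends on these libraries. FOXA2 and SOX9 had r = 0.692 (permutation p = 0.00571, adjusted p = 0.0405), but rho = 0.618 did not pass after adjustment (permutation p = 0.0212, adjusted p = 0.132), and r was 0.584 without libraries 20 and 9 (permutation p = 0.0428, adjusted p = 0.265), so this call was lost as well. CPM (counts scaled to the library total and by TMM factors, with no account of length) in place of TPM also ended this call, with r = 0.631 and an adjusted permutation p of 0.107. GATA6 and KLF5 had medians under 1 TPM in the 14, so no correlation was computed for them there.

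Genes with a pattern most like each factor were named by the highest r of log2(TPM + 1), out of 14095 genes in the 12 and 13532 in the 14. Genes without a symbol were passed over, and the names are given as a description with no test. For GATA6 in the 12 they were CDC42SE2 (r = 0.952), NDUFA5 (r = 0.951) and AHCYL1 (r = 0.950), and 52 genes exceeded 0.9. For FOXA1 they were PLEKHA2 (r = 0.961), HIBADH (r = 0.959) and HR (r = 0.955), with 31 genes over 0.9. KLF5 was most like PLAC9 (r = 0.942), SEPTIN9 (r = 0.939) and ZNF747 (r = 0.933), so no gene was among the leading 3 of more than 1 of these factors. SOX9 in the 12 was most like C18orf25 (r = 0.915), DYNC2H1 (r = 0.909) and SEC24D (r = 0.903), but without library 16 these fell to 0.521, 0.495 and 0.611. GATA4 was led by VAV2 (r = 0.892) and FOXA2 by CHRM3 (r = 0.905). In the 14, FOXA1 was most like SLC35F5 (r = 0.930), CLU (r = 0.887) and THSD7A (r = 0.886), GATA4 was led by RGPD8 (r = 0.882), FOXA2 by ZNF764 (r = 0.922) and SOX9 by MARCHF9 (r = 0.916).

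Among the 12, PDX1 stood out in where its most alike genes lie. In the 12 libraries its leading genes, LATS2 (r = 0.952), UFM1 (r = 0.910) and EEF1AKMT1 (r = 0.906), all lie on chromosome 13, as PDX1 does, at 6.95, 10.4 and 7.19 Mb from it. Of its 100 most alike genes, 65 lay on chromosome 13, which holds 1.67% of the genes compared. The median r with PDX1 was 0.572 over 221 genes of chromosome 13, 0.689 over the 98 within 20 Mb and 0.00125 over 13020 genes elsewhere. For KLF5, farther along the same chromosome, 0 of the 100 most alike genes lay on chromosome 13, although its median r was 0.473 over the 25 genes within 20 Mb and 0.257 over genes elsewhere. The other 5 factors compared had 1 or 2 of 100 on their own chromosome. In the 14 libraries, 8 of the 100 genes most like PDX1 lay on chromosome 13, which holds 1.58% of the genes compared there. The median r with PDX1 was 0.338 on chromosome 13 and -0.044 elsewhere. FOXA2 was near this in the 14, with 6 of 100 on chromosome 20 (2.74% of genes) and a median r of 0.296 against 0.101. GATA4, FOXA1 and SOX9 had 2, 1 and 3 of 100 on their own chromosomes.

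In the 14 libraries PDX1 was most like CDX2 (r = 0.916, rho = 0.916), the intestinal homeobox factor that lies beside it on chromosome 13, with the starts 49.3 kb apart. CDX2 ran from 0.0362 to 6.24 TPM with a median of 1.73 TPM, and in both genes libraries 11 and 18 were the lowest pair and library 12 was the highest. KISS1R (r = 0.880) and PPP1R3B (r = 0.849) followed. In the 12 libraries r with CDX2 was 0.687 and rho was 0.594. There CDX2 was at most 0.0218 TPM in 3 libraries, numbers 5, 7 and 16, and at 1.65 to 3.86 TPM in the other 9, while PDX1 in those 3 was at 1.02, 0.778 and 1.40 TPM.

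**Figure D3:**
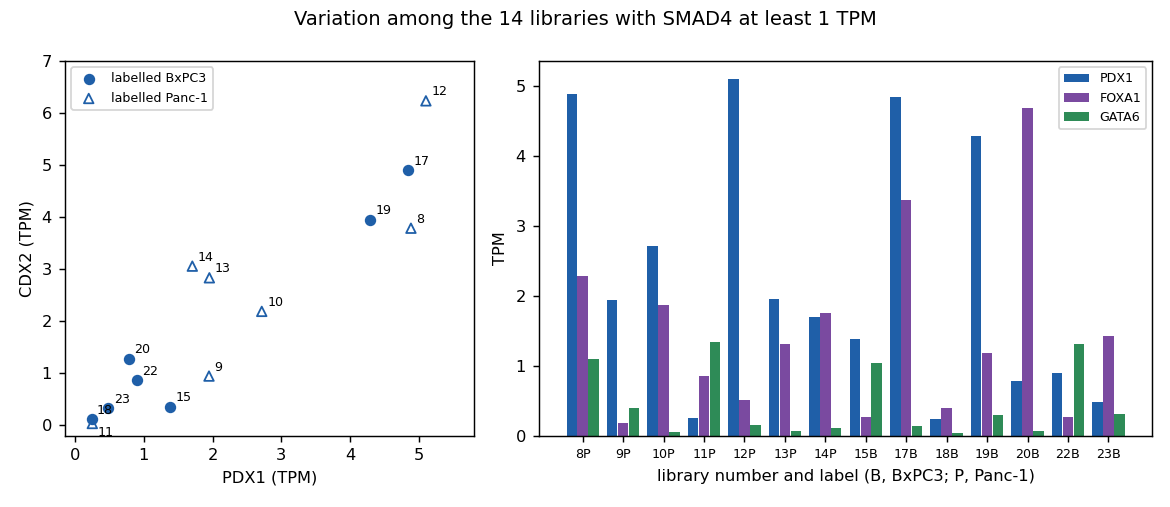
Left, TPM of CDX2 against PDX1 in the 14 libraries with SMAD4 at least 1 TPM, 1 point per library, filled for the label BxPC3 and open for Panc-1. Right, bars of TPM from 0 for PDX1, FOXA1 and GATA6 in the same libraries; PDX1 runs from 0.240 TPM in library 18 to 5.10 TPM in library 12, FOXA1 peaks in library 20 and GATA6 exceeds 1 TPM in libraries 8, 11, 15 and 22.

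Genes near the lineage factors were compared to see whether whole regions moved. Within 1 Mb of GATA6, 7 other genes had a median of at least 1 TPM on a side, and the nearest, MIB1 and ABHD3, overlapped between the sides. CABLES1, named after its values were seen, was higher in the 14 with no overlap. The difference of medians on the log2(TPM + 1) scale, 12 minus 14, was 4.26 for GATA6 and had a median of -0.14 over its neighbours. KLF5 had 4 such neighbours. PIBF1, among the nearest, overlapped between the sides (medians 11.96 and 10.5 TPM in the 12 and 14), as did BORA, which like MZT1 is named after its values were seen. MZT1 (46.5 to 94.2 against 17.1 to 45.5 TPM) and DIS3 (31.8 to 54.1 against 10.8 to 31.4 TPM) were higher in the 12, and the median difference over the 4 was 1.17 beside 6.72 for KLF5. Near FOXA1 the 2 expressed neighbours went against it or overlapped. Of 13 neighbours of GATA4, 3 were higher in the 12 and 1 in the 14. PDX1 had 11 (1 and 2), FOXA2 had 5 (3 and 0), HNF4A had 21 (7 and 4) and SOX9 had 1, which overlapped. Among all genes tested with such a median, 15.4% were higher in the 12 and 16.3% in the 14 with no overlap.

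**Figure D4:**
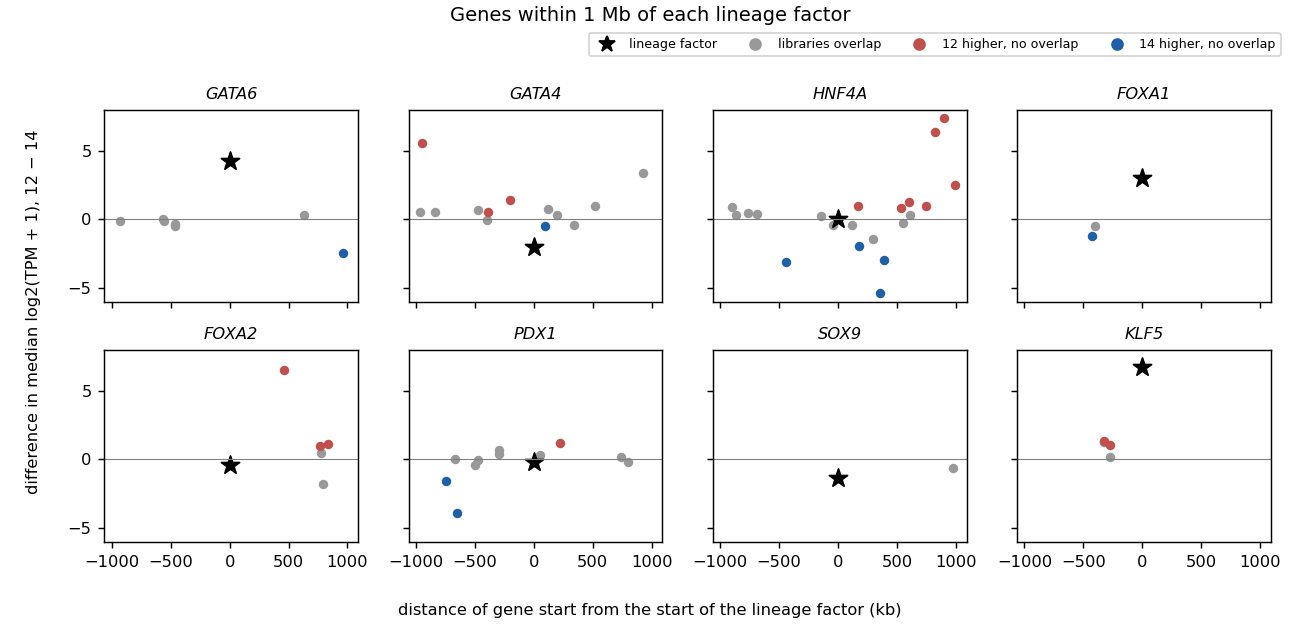
Difference in median log2(TPM + 1), 12 minus 14 libraries, against distance in kb from the start of each lineage factor, for genes within 1 Mb with a median of at least 1 TPM on a side. Stars are the lineage factors, red and blue points are neighbours higher in the 12 or the 14 with no overlap and grey points overlap; the stars of GATA6 (4.26) and KLF5 (6.72) stand above all of their neighbours.

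Other transcription factors of pancreas and endoderm were mixed in direction. Of 30 listed, 14 had a median of at least 1 TPM on a side, 5 were higher in the 12 with no overlap and 3 in the 14. Among all genes expressed at this level the shares were 15.4% and 16.3%. HNF4G (medians 3.29 and 0.256 TPM in the 12 and 14), PAX6 (6.07 and 0.207 TPM), HES1 (58.8 and 17.4 TPM) and ISL1 were higher in the 12, ISL1 by at least 28.4-fold against the floor of 3 counts per library. The fifth was HHEX (31.8 and 10.5 TPM), named after its values were seen. PAX6 and ISL1 are factors of endocrine cells, HHEX acts in the early foregut and HES1 is a target of Notch. In the 14, GATA5, another endoderm GATA factor, had a median of 34.3 TPM and was at least 686-fold higher, GATA2 was at 26.4 against 8.74 TPM and ONECUT3 at 8.69 against 0.0383 TPM. With GATA4 and GATA5 high and GATA6 low in the 14, and the reverse in the 12, the endoderm GATA genes did not move as one.

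Epithelial factors stood mostly with KLF5. Of 14 listed, all were expressed on a side, and 8 were higher in the 12 and 2 in the 14 with no overlap. Among all genes expressed at this level the shares were 15.4% and 16.3%. The median difference was 2.34 on the log2(TPM + 1) scale, beside -0.03 over all genes expressed at this level. EHF, an ETS factor of epithelium, had a median of 134.7 TPM in the 12 and was at least 1906-fold higher. TP63, the factor of basal squamous cells, was at 91.5 against 0.0947 TPM, and SPDEF, a factor of secretory cells, at 8.70 against 0.166 TPM. OVOL1, a zinc finger factor of epithelium, was at 1.96 against 0.0672 TPM. KLF6, a relative of KLF5, went the other way with 17.5 against 92.9 TPM, as did GRHL3 with 0.598 against 14.2 TPM.

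**Figure D5:**
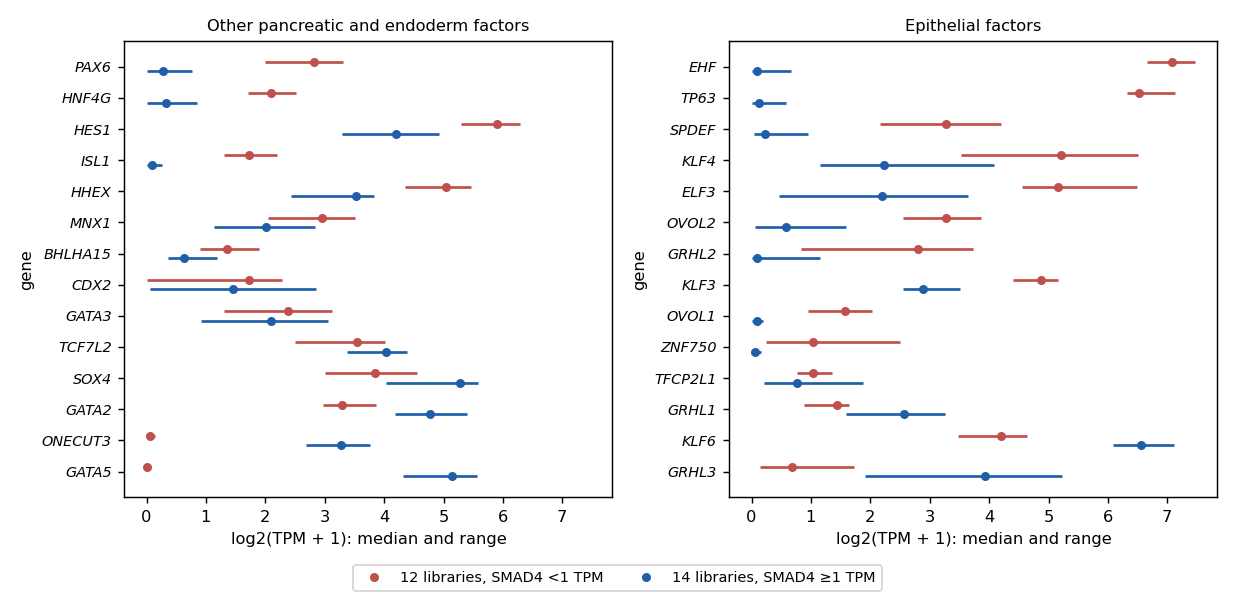
Median (point) and range (line) of log2(TPM + 1) for 14 other pancreatic and endoderm factors and 14 epithelial factors, red for the 12 libraries with SMAD4 under 1 TPM and blue for the 14 with at least 1 TPM. EHF and TP63 lie far to the right in red, and GATA5 and ONECUT3 lie to the right in blue with the red points near 0.

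Subtype genes were counted in the same way. Of 24 classical genes, 8 were expressed on a side, and ANXA10 (median 149 TPM, at least 1009-fold), CEACAM6 (5.02 against 0.134 TPM) and ST6GALNAC1 (6.32 against 0.508 TPM) were higher in the 12. No classical gene was higher in the 14 with no overlap, but 4 of the 8 had the higher median there, named after their values were seen: CDH17 (0.736 against 6.11 TPM), LGALS4 (0.634 against 1.62 TPM), AGR2 (38.1 against 87.6 TPM) and TFF3 (median 1.94 TPM in the 14, at least 7.82-fold). Of 24 basal-like genes, 20 were expressed and 17 were higher in the 12, among them the keratins KRT17 (2971 against 0.387 TPM) and KRT6A (median 244 TPM, at least 3935-fold), the tensin TNS4 (122 against 0.0455 TPM) and SCEL (42.2 TPM, at least 650-fold), a protein of the cornified envelope, and none in the 14. The basal-like gene CTSV, named after its values were seen, had the higher median in the 14 (12.9 against 19.3 TPM). Among all genes expressed at this level, 15.4% were higher in the 12 and 16.3% in the 14 with no overlap. The 12 libraries with the higher GATA6, FOXA1 and KLF5 were thus also higher in 3 classical and 17 basal-like genes than the 14, some of them at a few TPM.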

How the data were processed

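mRNA of 26 SCDCLs was measured, 1 library each. The authors assigned paired, strand-specific reads to Ensembl transcripts (release 103, GRCh38) with kallisto 0.46.1 and deposited, per gene, TPM and estimated counts that tximport rebuilds from abundance and length, scaled to each library's total. Estimated counts of 30 resamplings per library were deposited too and not used, and with them 806 per-sample columns stayed unused, so counting error is given in place of the planned spread over resamplings.

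Groups were the labels (12 BxPC3, 14 Panc-1). The split by SMAD4 under 1 TPM comes from measured values and was described, not tested. Protein data and reads were not analysed here. The factors and gene lists, and the tests, were chosen with earlier results of these data known. Symbols and positions came from GENCODE 44 (36315 of 41078 genes matched), and promoter windows from RefSeq (GRCh38.p14).

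Levels are deposited TPM, and a pseudocount of 1 was added before log2. For tests, the deposited estimated counts were rounded and fitted with edgeR 4.0.16 (quasi-likelihood, filterByExpr, TMM, Benjamini-Hochberg, adjusted p under 0.05 and absolute log2 fold change over 1). DESeq2 1.42.0 and limma 3.58.1 were alternatives, with other scaling, no filter, SMAD4 as a covariate and each library left out. p-values of the fits between labels measure the spread between SCDCLs of a label, which includes the gap between the sides given by SMAD4. With SMAD4 as a covariate, or within a side, they measure the spread within label and side. Permutation p-values of correlations come from the libraries of 1 side, both labels together. Correlations used two-sided tests with 100000 permutations. Scripts ran in R 4.3.3 and Python 3.11.15 (scipy 1.17.1, pandas 2.3.3, numpy 2.4.6) and were tested on simulated data. Totals ranged from 27035724 to 34945608 estimated counts (median 29623513), and bounds used a floor of 3 counts per library, which covers counting error only.

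Named genes were the 8 factors, SMAD4, CDH1 and VIM, up to 4 genes per list and direction with the largest ratio among those with a median of at least 1 TPM and no overlap, the 3 genes most alike to each factor on each side, of which some are left out, and the nearest 2 neighbours within 1 Mb. One listed epithelial factor is not reported here and was left out of its list. None of the 11 listed long RNAs near the factors was matched by symbol.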

Additional observations from a re-analysis of the deposited data

Results flagged for a closer look

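Within each label and side, 32 groups of 5 to 7 libraries were screened for a library far from the rest, and 4 stood apart. The rule was set to flag about 1 of 20 groups by chance, or 1.6 of 32, a rate that was not checked for these values. SOX9 in library 16, labelled BxPC3 and without SMAD4, was at 104.5 TPM, while the next of the 5 libraries was at 32.3 TPM. GATA4 in library 6, labelled Panc-1 and without SMAD4, was the lowest of 7 at 0.952 TPM, below the next at 1.51 TPM, although library 26, labelled BxPC3 and also without SMAD4, was lower still at 0.936 TPM. FOXA2 in library 9, labelled Panc-1 and with SMAD4, was the lowest of 7 at 15.03 TPM, with the next at 22.6 TPM. HNF4A in library 24, labelled BxPC3 and without SMAD4, was the highest of 5 at 0.181 TPM, which rests on 16.4 estimated counts.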

How the results depend on the processing

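edgeR called 0 genes between the labels with TMM, with DESeq2 size factors, without a filter (0 of 29052), with SMAD4 as a covariate and with each library left out (0 in all 26 fits), and limma also called 0 (346 at an unadjusted p under 0.05). edgeR also called 0 within the 12 and within the 14 libraries, fits chosen after seeing the data. DESeq2 called 1 gene, with 460 at an unadjusted p under 0.05, and 1 gene with SMAD4 as a covariate, an alternative chosen after seeing the data. It was MYH16 both times, with a log2 fold change of -2.09 (DESeq2 adjusted p = 0.0127) and -1.91 (DESeq2 adjusted p = 0.00568), and no lineage factor was called in any of these fits. The number of lineage factors with no overlap between the 12 and the 14 libraries was 4 with CPM and with DESeq2 size factors, and 4 to 5 with each library left out, where 5 came without library 16 (SOX9). It was 4 in the 12 libraries whose SMAD4 fits the label and 5 in the 14 where it goes against it, both chosen after seeing the data. Apart from HNF4A, for which no ratio is given, the log2 ratios of medians kept their direction with CPM and with size factors. A pseudocount of 0.1 moved 8 of the 16 SDs, mostly of genes near 1 TPM or less, to as much as 1.37 for PDX1 in the 14. Of 31 correlations, adjusted p-values kept their side of the threshold in 30 with TMM-scaled CPM and in 28 without the 2 farthest libraries. The 3 lost were GATA6 with KLF5 in the 12, and GATA4 with PDX1 and FOXA2 with SOX9 in the 14. No paired analysis was made, because each library is a separate SCDCL and the labels give no pairs between BxPC3 and Panc-1. With 1 library per SCDCL, differences between single SCDCLs have no replicate check. HNF4A in all libraries, and GATA6 and KLF5 in the 14, rest on few counts.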
